A study of Rattus norvegicus with 12 samples.

Results

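The BCL2 family regulators of apoptosis were examined in left ventricular RNA-seq libraries of 12 male SD rats, 4 in each of 3 groups. Members were the rows of the deposited count table whose gene name was 1 of 10 fixed symbols, and 8 of the 10 were found among 34599 genes. They were the pro-survival genes Bcl2 and Bcl2l1, the effectors Bax and Bak1, and the BH3-only genes Bcl2l11, Pmaip1, Bid and Bad. The pro-survival gene Mcl1 and the BH3-only gene Bbc3 had no row under those names and were not analysed here. Each of the 8 genes passed the filter on low counts, with 48 to 4894 counts in a rat.

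Sham rats had the chest opened without ligation of the left anterior descending artery, so their tissue held no infarct. MI rats had the artery ligated, and tissue of the infarct region was taken at day 1. iCarP+/Light+ rats had the same ligation and an injection of living Chlorella (a photosynthetic green alga) into the infarct. A flexible light-guiding patch was glued onto their epicardium. It was lit continuously for a period that anesthesia limited, and not up to the sampling at day 1. The last group therefore differs from MI in 4 ways at once (injected algae, implanted patch, adhesive and illumination), which cannot be told apart here; a patch group kept dark was not analysed here. The study's methods give an age of 6 weeks for male SD rats of its illumination experiments, and the labels state none for these samples.

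The mitochondrial pathway of apoptosis is set by how proteins of the BCL2 family bind one another. Pro-survival members hold the effectors BAX and BAK in check, BH3-only members sense stress and either block the pro-survival members or activate the effectors, and active effectors open the outer mitochondrial membrane so that cytochrome c reaches the caspases. Much of this control lies in protein binding, cleavage, phosphorylation and location, none of which RNA-seq measures. In the ischemic heart the pathway is known for its part in the death of cardiomyocytes, and the same family also sets the lifespan of neutrophils and lymphocytes.

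The libraries held 14064414 to 17136958 counts, and reads of mitochondrial genes took 22.8% to 28.9% (Sham), 8.52% to 11.5% (MI) and 7.14% to 14.2% (iCarP+/Light+) of them, so Sham stood apart. With these genes left out of the fit, every measured member kept its direction and its side of the threshold in all 3 comparisons. Summed RNA of cell type markers differed strongly between groups. Summed cardiomyocyte markers (9 of 10 listed had a row, none at 0 in any rat) ranged over 52750 to 57687 CPM for Sham rats, 3333 to 6584 for MI rats and 2831 to 7742 for iCarP+/Light+ rats, where CPM is counts scaled to a common library size with TMM normalization, a correction for library composition. Summed leukocyte markers (9 of 10, none at 0) were at 113 to 157, 1434 to 2245 and 3720 to 8979 CPM, so the sums of the 3 groups did not overlap. Single markers did not all move alike. S100a9 spanned 124 to 301 CPM (MI) and 933 to 3161 CPM (iCarP+/Light+), whereas Cd68 spanned 119 to 236 and 112 to 165 CPM. Fewer cells of a type and less RNA per cell cannot be told apart in bulk tissue, and the part of cell makeup in each result below was not tested.

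Of the 8 measured members, 5 passed the test as higher in MI than in Sham and none as lower (edgeR quasi-likelihood test, adjusted p below 0.05 over 15101 genes). Of all genes tested, 63.8% passed in this comparison, 30.2% as higher and 33.6% as lower. Between iCarP+/Light+ and MI, 3 members passed as higher (Bcl2l1, Bcl2l11 and Pmaip1) and none as lower, against 13.6% of all genes, 11.6% higher and 2.01% lower. Between iCarP+/Light+ and Sham, 6 passed as higher and 1 (Bcl2) as lower, against 66.5% of all genes, 33.5% higher and 33.0% lower. Values of the rats did not overlap between groups for 5, 3 and 7 members in the same order of comparisons, where 59.0%, 16.4% and 63.5% of all genes did not. The median log2 fold change of the 8 members was 0.62, 0.29 and 1.32, beside -0.060, 0.013 and 0.017 over all genes tested. Where libraries were scaled by total counts alone, 30.6% instead of 85.2% of the genes called between iCarP+/Light+ and MI were higher. With 8 members these are counts beside a background in which most genes passed in both comparisons with Sham, and they are not a test of the family. Both comparisons with MI share the 4 MI libraries, and both with Sham share the 4 Sham libraries.

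**Figure D1:**
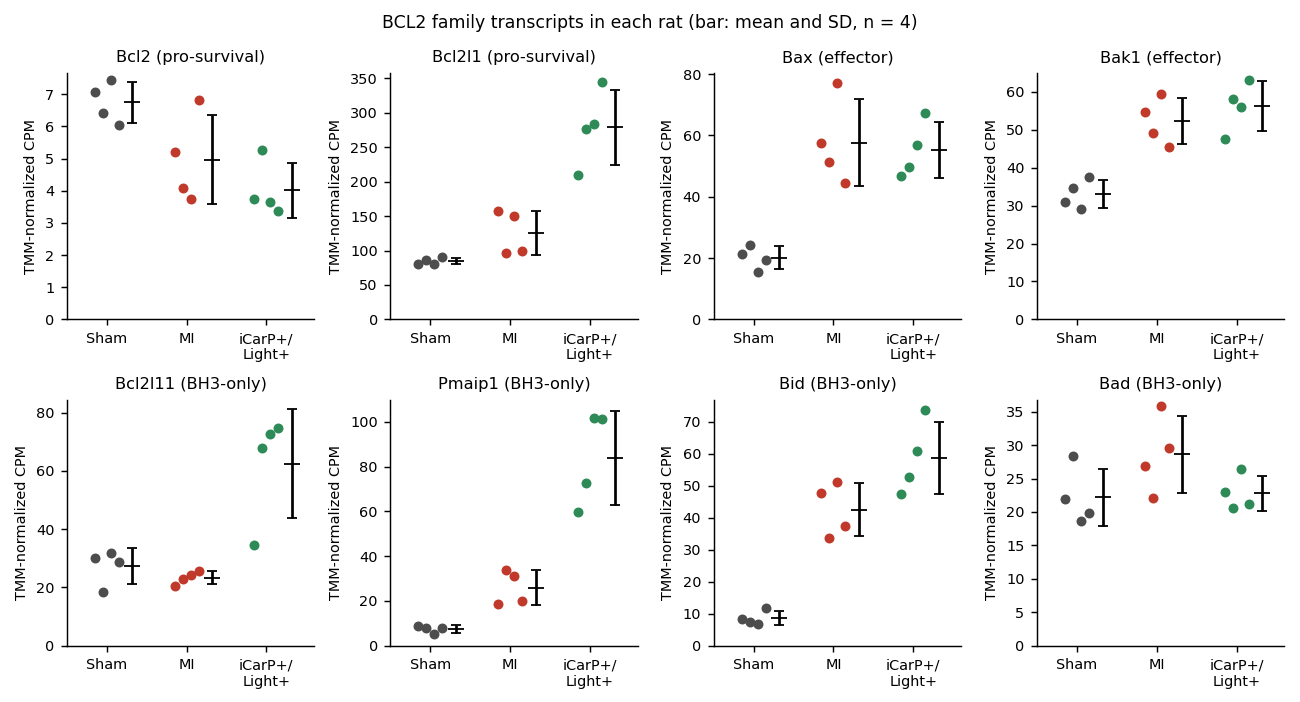
TMM-normalized CPM (y axis, linear from 0) of the 8 measured members in each rat, by group; points are rats and bars the mean and SD (n = 4). Bcl2l1, Bcl2l11 and Pmaip1 are the genes whose 4 iCarP+/Light+ points all lie above the 4 MI points, while Bax and Bak1 differ from Sham but overlap between the other two groups.

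The promoters of the 3 members that passed between iCarP+/Light+ and MI are shown because these genes were higher together in 1 comparison and belong to opposing roles. RefSeq sequences on GRCr8, which is another build than that of the counts, matched 8 of the 10 symbols. Each line gives the 250 bases before the start, with matches to a forkhead motif, a hypoxia-response core or a CRE half-site in capitals. Bcl2l1 lies at chr3:161764776-161765025 on the minus strand (the most upstream of 4 listed starts), Bcl2l11 at chr3:135819792-135820041 on the plus strand and Pmaip1 at chr18:62255720-62255969 on the plus strand.
Bcl2l1: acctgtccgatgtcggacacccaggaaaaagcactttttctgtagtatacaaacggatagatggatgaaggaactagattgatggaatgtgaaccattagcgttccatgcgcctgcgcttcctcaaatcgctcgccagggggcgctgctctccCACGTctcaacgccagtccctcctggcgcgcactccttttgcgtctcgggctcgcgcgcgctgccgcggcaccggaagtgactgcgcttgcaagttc
Bcl2l11: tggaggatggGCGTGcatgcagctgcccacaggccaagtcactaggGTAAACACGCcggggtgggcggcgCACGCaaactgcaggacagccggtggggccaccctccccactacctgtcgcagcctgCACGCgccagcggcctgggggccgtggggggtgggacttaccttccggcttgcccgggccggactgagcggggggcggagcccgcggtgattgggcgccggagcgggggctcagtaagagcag
Pmaip1: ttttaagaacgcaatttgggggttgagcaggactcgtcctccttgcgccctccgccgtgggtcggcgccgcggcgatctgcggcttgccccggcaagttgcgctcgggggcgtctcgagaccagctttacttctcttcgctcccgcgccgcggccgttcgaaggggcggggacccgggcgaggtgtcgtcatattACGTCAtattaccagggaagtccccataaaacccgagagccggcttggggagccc
Motifs were searched on both strands. The forkhead motif GTAAACA, bound by FOXO factors, was in 3.21% of 33469 promoters of the same length, and among these 3 genes it occurred in Bcl2l11, 204 bases before the start. The hypoxia-response core (ACGTG or GCGTG) was in 36.7% of promoters, so a match is common. It occurred at 97 bases before the start of Bcl2l1 and at 240, 199, 180 and 123 bases before that of Bcl2l11, the match at 199 sharing 2 bases with the forkhead match. The CRE half-site TGACGT (6.95% of promoters) occurred 55 bases before the start of Pmaip1. NF-kB matches (6.33% of promoters) lay 41 and 40 bases before the same start and overlap each other. TGATG, the first letters of the C/EBP-ATF element TGATGCAAT, was in 35.2% of promoters and occurred 171 bases before the start of Bcl2l1. The whole element (0.161%), the AP-1 site TGANTCA (6.34%) and the STAT site TTCCNGGAA (1.07%) had no match in the 3 windows. Some of these motifs were also in members that did not pass between iCarP+/Light+ and MI: the forkhead motif lay 118 bases before the start of Bad, a hypoxia-response core 150 bases before that of Bcl2, and TGATG 244 bases before that of Bcl2 and 187 before that of Bid. A match describes letters and is no evidence that a factor binds there.

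Among the pro-survival members, Bcl2l1 was higher in each step from Sham to MI to iCarP+/Light+, whereas Bcl2 passed once, as lower in iCarP+/Light+ than in Sham. Bcl2l1 (ENSRNOG00000007946, rn6 chr3:148259596-148313810, minus strand) encodes BCL-XL, an inhibitor of BAX and BAK at the mitochondrial membrane. It was at 81.0, 85.5, 80.6 and 90.6 CPM in the Sham rats, at 157, 96.2, 150 and 99.4 CPM in the MI rats and at 210, 276, 284 and 344 CPM in the iCarP+/Light+ rats. No 2 groups overlapped, although 2 MI rats lay just above the Sham range. MI exceeded Sham by log2 0.57 ± 0.18 (SE; adjusted p = 0.0144), and iCarP+/Light+ exceeded MI by 1.15 ± 0.18 (adjusted p = 9.33e-04), a 2.22-fold difference. Against Sham, iCarP+/Light+ was 3.30-fold higher (log2 1.72 ± 0.19, adjusted p = 3.67e-06). With the replicate number as a block, the Sham to MI difference was 0.52 and its adjusted p 0.0659.

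Counts of Bcl2l1 carry a reservation. The pseudogene LOC108350502 lies inside the gene on the other strand and held 44090 counts over all rats, against 31298 for Bcl2l1. Whether counting used strand was not stated, so reads of the 2 loci may not have been separable. The pseudogene row itself spanned 120 to 208 CPM (Sham), 257 to 309 CPM (MI) and 171 to 270 CPM (iCarP+/Light+), with a log2 fold change of 0.81 ± 0.18 from Sham to MI (adjusted p = 0.00156) and -0.36 ± 0.18 from MI to iCarP+/Light+ (adjusted p = 0.236). No value here separates the reads of the 2 loci, and their part in the Bcl2l1 result was not tested. Summed red cell markers spanned 2503 to 6928 CPM among MI rats, 6183 to 17465 among iCarP+/Light+ rats, and 7863 to 10568 among Sham rats, and their part in the Bcl2l1 result was not tested.

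Bcl2 (ENSRNOG00000002791, rn6 chr13:26605426-26769374, minus strand) encodes the founding pro-survival member, prominent in lymphocytes. It was at 7.08, 6.42, 7.44 and 6.04 CPM in Sham, at 5.22, 4.10, 3.75 and 6.81 CPM in MI and at 3.76, 5.26, 3.66 and 3.38 CPM in iCarP+/Light+. The Sham and iCarP+/Light+ ranges were apart, MI overlapped iCarP+/Light+, and MI rat 5 reached into the Sham range. iCarP+/Light+ was 1.68-fold lower than Sham (log2 -0.75 ± 0.22, adjusted p = 0.00961). The MI to Sham difference of -0.44 ± 0.22 did not pass (adjusted p = 0.0963), but without MI rat 5 it was -0.62 with an adjusted p of 0.0243. Nor did the difference of -0.31 between iCarP+/Light+ and MI (95% interval -0.79 to 0.17, adjusted p = 0.438). Summed lymphocyte markers (5 of 6 had a row; Ms4a1 was at 0 in MI rat 4) spanned 4.91 to 9.80 CPM (Sham), 74.1 to 213 CPM (MI) and 20.4 to 58.7 CPM (iCarP+/Light+), and their part in the Bcl2 result was not tested. The difference from Sham was smaller when libraries were scaled by total counts alone (log2 -0.43, adjusted p = 0.116).

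Mcl1 itself had no row. A pair of overlapping unnamed loci, at rn6 chr2:197787106-197796032 on the minus strand and chr2:197787106-197803577 on the plus strand, carry a description that names the mouse MCL1 protein, and they are given as a description only, chosen after the table was seen. The minus-strand locus spanned 3.54 to 6.34 CPM (Sham), 2.91 to 7.66 CPM (MI) and 10.3 to 13.6 CPM (iCarP+/Light+). Its plus-strand partner spanned 1.52 to 2.28, 3.51 to 6.08 and 11.2 to 15.1 CPM. Both exceeded MI in iCarP+/Light+ (log2 1.30 ± 0.27, adjusted p = 0.00497, and 1.57 ± 0.21, adjusted p = 2.15e-04). Without strand information their reads cannot be assigned to 1 locus, and neither stands for Mcl1 as a member.

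Both effectors were higher in MI and in iCarP+/Light+ than in Sham, and neither passed between iCarP+/Light+ and MI. Bax (ENSRNOG00000020876, rn6 chr1:101451802-101457207, minus strand) moves from the cytosol to mitochondria and forms pores there. It was at 21.5, 24.4, 15.6 and 19.2 CPM in Sham, at 57.6, 51.3, 77.2 and 44.5 CPM in MI and at 46.9, 49.6, 56.8 and 67.3 CPM in iCarP+/Light+. The iCarP+/Light+ values lay inside the MI range, and both groups lay above Sham. MI exceeded Sham by log2 1.51 ± 0.19 (adjusted p = 1.41e-05), and the difference of iCarP+/Light+ from MI was -0.065 (95% interval -0.46 to 0.33, adjusted p = 0.866).

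Bak1 (ENSRNOG00000000485, rn6 chr20:5609625-5618260, minus strand) encodes BAK, which sits in the outer mitochondrial membrane before activation. It was at 31.1, 34.5, 29.0 and 37.5 CPM in Sham, at 54.8, 49.3, 59.3 and 45.6 CPM in MI and at 47.6, 58.1, 56.2 and 63.2 CPM in iCarP+/Light+. As for Bax, Sham stood apart and the other groups overlapped. MI was 1.58-fold higher than Sham (log2 0.66 ± 0.12, adjusted p = 4.02e-04), and the difference between iCarP+/Light+ and MI was 0.11 (95% interval -0.16 to 0.37, adjusted p = 0.645). The intervals of both effectors leave room for differences as large as their bounds.

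The 4 measured BH3-only genes did not all pass in the same comparisons. As higher, 2 passed from Sham to MI (Pmaip1 and Bid) and 2 from MI to iCarP+/Light+ (Pmaip1 and Bcl2l11). From Sham to iCarP+/Light+, 3 passed as higher (Pmaip1, Bid and Bcl2l11). Of all genes, 63.8%, 13.6% and 66.5% passed in these comparisons, in either direction. Pmaip1 (ENSRNOG00000018770, rn6 chr18:62174670-62181102, plus strand) encodes NOXA, which binds and blocks MCL1. It was at 8.96, 7.71, 5.09 and 8.11 CPM in Sham, at 18.7, 33.8, 31.2 and 19.8 CPM in MI and at 59.7, 72.7, 102 and 101 CPM in iCarP+/Light+. The 3 groups were fully apart. MI exceeded Sham by log2 1.79 ± 0.25 (adjusted p = 4.05e-05), and iCarP+/Light+ exceeded MI by 1.70 ± 0.24 (adjusted p = 3.93e-04). Against Sham, iCarP+/Light+ was 11.2-fold higher (3.49 ± 0.26, adjusted p = 1.77e-07), the largest fold change of the 8 members in the 3 comparisons.

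Bcl2l11 (ENSRNOG00000016551, rn6 chr3:120726906-120764192, plus strand) encodes BIM, which binds every pro-survival member and can activate the effectors directly, and FOXO factors are known to drive it. It was at 30.2, 18.4, 31.9 and 28.8 CPM in Sham, at 20.6, 23.0, 24.1 and 25.7 CPM in MI and at 34.6, 67.8, 72.8 and 74.8 CPM in iCarP+/Light+. Sham and MI overlapped, and iCarP+/Light+ lay above both, with rat 1 far below the other 3 of its group. The difference between MI and Sham was -0.23 (95% interval -0.72 to 0.26, adjusted p = 0.399), and iCarP+/Light+ was 2.68-fold higher than MI (log2 1.42 ± 0.23, adjusted p = 9.55e-04). It was also 2.29-fold higher than Sham (log2 1.19 ± 0.23, adjusted p = 4.43e-04). It thus passed in both comparisons that involve iCarP+/Light+ and not between MI and Sham, as did Bmf and Bnip3l among the further family genes.

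Bid (ENSRNOG00000012439, rn6 chr4:153442218-153465203, minus strand) encodes the protein that caspase-8 cleaves to link death receptors with mitochondria. It was at 8.38, 7.51, 6.76 and 11.8 CPM in Sham, at 47.7, 33.6, 51.1 and 37.6 CPM in MI and at 47.5, 52.6, 61.0 and 73.6 CPM in iCarP+/Light+. Sham lay far below the rest, and 1 iCarP+/Light+ rat fell within the MI range. MI was 4.93-fold higher than Sham (log2 2.30 ± 0.21, adjusted p = 9.21e-07), the largest difference of a member in that comparison. From MI to iCarP+/Light+ the difference of 0.47 did not pass after adjustment (95% interval 0.053 to 0.88, adjusted p = 0.141).

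Bad (ENSRNOG00000021147, rn6 chr1:222198534-222207453, plus strand) encodes a BH3-only protein that survival kinases hold inactive by phosphorylation. It was at 21.9, 28.3, 18.7 and 19.9 CPM in Sham, at 26.9, 22.1, 35.9 and 29.5 CPM in MI and at 23.0, 20.5, 26.4 and 21.2 CPM in iCarP+/Light+. Its ranges overlapped in all 3 comparisons. None passed, with log2 fold changes of 0.36 ± 0.17 (adjusted p = 0.0718), -0.33 ± 0.17 (adjusted p = 0.246) and 0.038 ± 0.17 (adjusted p = 0.854). The first of these was near the threshold and passed without MI rat 3 (0.48, adjusted p = 0.0245), without Sham rat 2 (0.50, adjusted p = 0.0188) or without iCarP+/Light+ rat 5 (0.47, adjusted p = 0.0310).

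**Figure D2:**
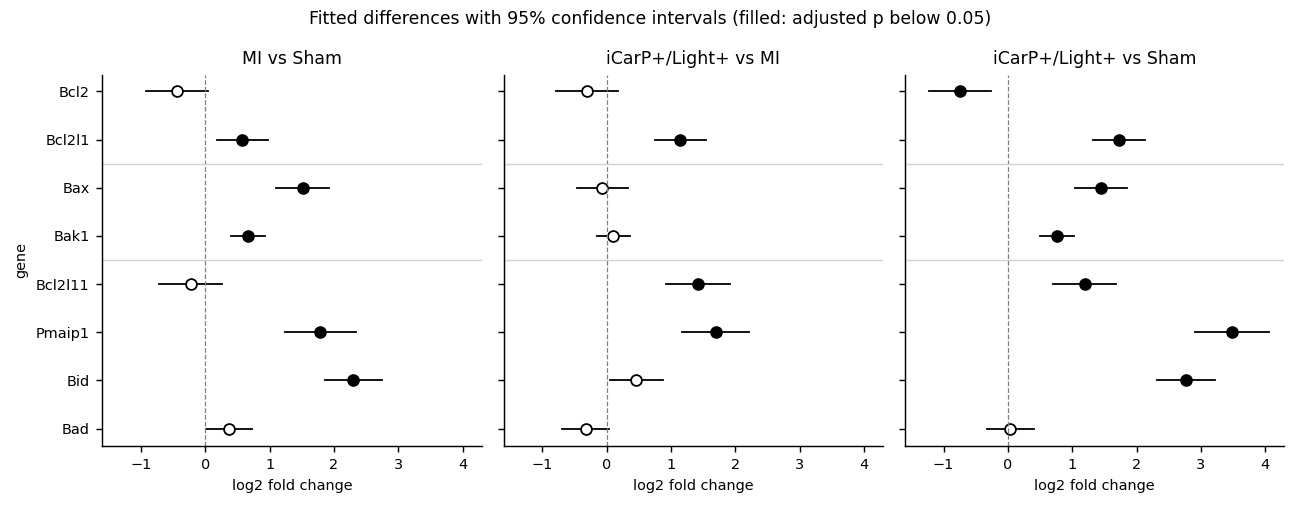
Log2 fold change (x axis) of each measured member in the 3 comparisons, with 95% confidence intervals from the edgeR fit over 12 rats; filled points have an adjusted p below 0.05, and grey lines divide pro-survival (top), effector and BH3-only genes. In the middle panel Bcl2l1, Bcl2l11 and Pmaip1 lie at 1.15, 1.42 and 1.70, while both effectors have intervals that span 0.

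Of the leukocyte markers, 6 of 9 passed as higher in the comparison of iCarP+/Light+ with MI, and 0 of 9 cardiomyocyte markers passed in either direction. The largest leukocyte differences were those of S100a9 (log2 3.53 ± 0.39), S100a8 (3.37 ± 0.38), Cxcr2 (3.08 ± 0.38) and Csf3r (2.67 ± 0.31). Cd14 (0.69), Itgb2 (0.63) and Cd68 (-0.39) did not pass. Between MI and Sham, all 9 leukocyte markers passed as higher and all 9 cardiomyocyte markers as lower. Endothelial markers (5 measured) passed as lower in all 5 and fibroblast markers in 5 of 6 from Sham to MI. From MI to iCarP+/Light+, none of the endothelial and 1 of the fibroblast markers passed, and of 5 lymphocyte markers none passed as higher and 2 as lower. The calls of Bcl2l1, Bcl2l11 and Pmaip1 thus came with 6 of 9 leukocyte and 4 of 6 red cell markers passing as higher. The part of these cells in the calls was not tested.

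Ratios of 2 members within a library do not depend on how libraries are scaled. The Bax to Bcl2 ratio of counts, often read as a balance of effector and inhibitor, averaged 3.03 ± 0.71 among Sham rats (SD, n = 4), 12.7 ± 5.9 among MI rats and 14.3 ± 4.5 among iCarP+/Light+ rats. Rats ranged from 2.09 to 3.80, from 6.53 to 20.6 and from 9.43 to 19.9, so Sham was apart and the other groups overlapped. Against Bcl2l1 the order was another one. The Bax to Bcl2l1 ratio averaged 0.239 ± 0.043 (Sham), 0.465 ± 0.076 (MI) and 0.199 ± 0.018 (iCarP+/Light+), with MI (0.366 to 0.533) above both Sham (0.193 to 0.285) and iCarP+/Light+ (0.179 to 0.223).

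On the log2 scale the Bax to Bcl2 ratio was higher by 1.98 in MI than in Sham and by 2.22 in iCarP+/Light+ than in Sham (exact permutation tests, two-sided, p = 0.0286 each, adjusted p = 0.0429 over 6 ratio comparisons). Between iCarP+/Light+ and MI it differed by 0.24 (exact permutation p = 0.6). Bax to Bcl2l1 was higher by 0.96 in MI than in Sham and lower in iCarP+/Light+ than in MI, at a log2 difference of -1.21 or 2.32-fold (exact permutation p = 0.0286 each, adjusted p = 0.0429). Between iCarP+/Light+ and Sham it differed by -0.25 (exact permutation p = 0.2, adjusted p = 0.24). With 4 rats against 4 the smallest p that the test can give is 0.0286. The adjusted p of 0.0429 depends on how many of the 6 comparisons share that smallest p. It also depends on the number of comparisons, which fell to 6 when the planned ratio with Mcl1 dropped out. The reservation about Bcl2l1 counts holds for its ratio too.

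**Figure D3:**
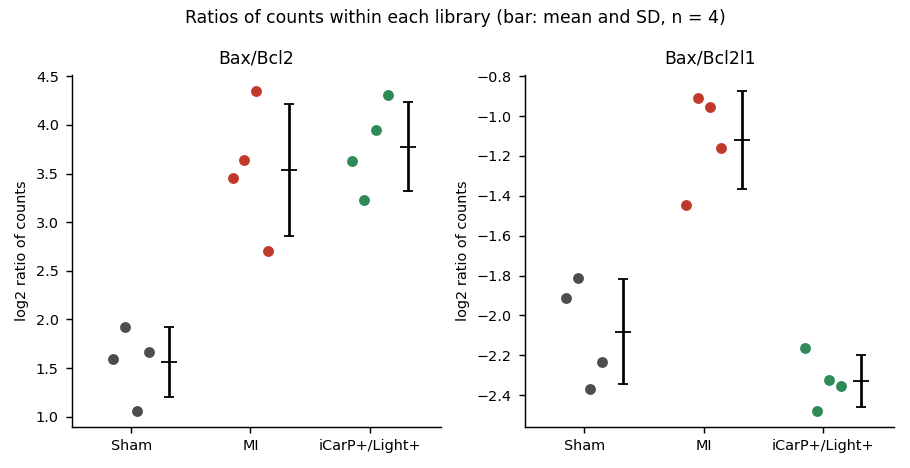
Log2 ratio of counts within each library (y axis) for Bax over Bcl2 (left) and Bax over Bcl2l1 (right); points are rats, bars mean and SD (n = 4), and the 2 y axes differ. On the left MI and iCarP+/Light+ overlap above Sham, and on the right MI stands above both other groups.

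Levels were compared between genes per kilobase of gene length, as TMM-normalized RPKM. In Sham the order was Bad (22.2 ± 4.3, SD), Bcl2l1 (20.5 ± 1.1), Bak1 (16.3 ± 1.9), Bax (15.8 ± 2.9), Bcl2l11 (5.32 ± 1.18), Bid (4.32 ± 1.12), Bcl2 (3.28 ± 0.31) and Pmaip1 (2.70 ± 0.60 RPKM). Neighbours overlapped in range except at the steps from Bcl2l1 to Bak1 and from Bax to Bcl2l11. In MI, Bax led at 45.1 ± 11.0 RPKM, followed by Bcl2l1 at 30.5 ± 7.9, Bad at 28.6 ± 5.8, Bak1 at 25.8 ± 3.0 and Bid at 21.3 ± 4.2, and these 5 overlapped from one to the next. Pmaip1 (9.37 ± 2.80), Bcl2l11 (4.54 ± 0.42) and Bcl2 (2.42 ± 0.67 RPKM) came last, each apart from its neighbours. In iCarP+/Light+, Bcl2l1 led at 67.7 ± 13.3 RPKM, with Bax at 43.2 ± 7.1, Pmaip1 at 30.4 ± 7.6, Bid at 29.4 ± 5.7 and Bak1 at 27.8 ± 3.2 in overlapping order. Bad (22.8 ± 2.6) overlapped Bak1, and Bcl2l11 (12.2 ± 3.7) and Bcl2 (1.95 ± 0.41 RPKM) stood apart at the end. Pmaip1 thus went from the last place in Sham to the third in iCarP+/Light+, and Bcl2 held the last or the second to last place in every group.

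Summed over the 8 measured members, the level was 90.4 ± 7.8 RPKM (Sham), 168 ± 29 RPKM (MI) and 235 ± 39 RPKM (iCarP+/Light+; SD, n = 4). Pro-survival genes made up 26.4%, 19.6% and 29.5% of that sum, effectors 35.4%, 42.2% and 30.3%, and BH3-only genes 38.2%, 38.2% and 40.2%. Effectors summed to 70.9 ± 13.9 RPKM in MI rats and 71.0 ± 9.9 RPKM in iCarP+/Light+ rats, and pro-survival genes to 32.9 ± 7.7 and 69.6 ± 13.2 RPKM, most of it Bcl2l1. These sums leave out Mcl1 and Bbc3, so they describe the measured genes and not the balance of the whole family.

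**Figure D4:**
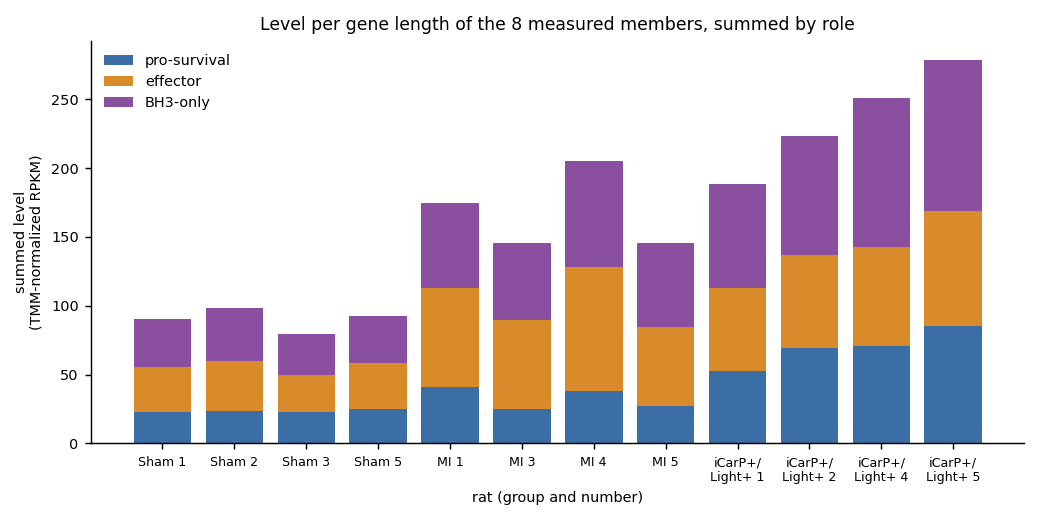
Summed TMM-normalized RPKM (y axis, from 0) of the measured pro-survival (Bcl2, Bcl2l1), effector (Bax, Bak1) and BH3-only (Bcl2l11, Pmaip1, Bid, Bad) genes in each rat, stacked by role. The sum runs from 79.8 to 98.5 (Sham), 145 to 205 (MI) and 188 to 279 (iCarP+/Light+).

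Of 13 further family genes, 10 could be tested; Hrk had no row, and Bcl2l10 and Bcl2l15 were under the filter. Of all genes tested, 30.2% passed as higher and 33.6% as lower from Sham to MI. The shares were 11.6% and 2.01% from MI to iCarP+/Light+, and 33.5% and 33.0% from Sham to iCarP+/Light+. Of the 10 family genes, 4 passed as higher and 3 as lower from Sham to MI (median log2 fold change -0.23). Bcl2a1, a pro-survival gene of neutrophils and other leukocytes, was higher by log2 3.44 ± 0.30 (adjusted p = 6.80e-07). Bcl2l14 passed too, with 1, 3, 2 and 2 counts in the Sham rats and 17 to 28 in the MI rats, as did the BH3-only gene Bik, with 10, 8, 5 and 0 counts in the Sham rats and 12 to 28 in the MI rats. The CPM ranges of Bik overlapped (0 to 0.723 and 0.647 to 1.51). Sham counts of both are too few for a fold change, and both passed the filter through the other groups. From MI to iCarP+/Light+, 5 passed as higher and none as lower (median 0.67). Bnip3, a mitophagy receptor induced by hypoxia, was at 41.5, 134, 102 and 51.4 CPM in MI and 233, 469, 355 and 445 CPM in iCarP+/Light+, a 4.56-fold difference (log2 2.19 ± 0.33, adjusted p = 6.47e-04). Its level in Sham lay between them at 177 to 198 CPM. Bik was higher by 1.78 ± 0.51 and Bcl2a1 by 1.76 ± 0.27. Bcl2a1 was at 40.6 to 97.2 CPM among MI rats and 160 to 268 among iCarP+/Light+ rats, in the order of the summed leukocyte markers. The other 2 that passed, named after their values were seen, were Bnip3l (1.21 ± 0.18) and the BH3-only gene Bmf (1.16 ± 0.26). From Sham to iCarP+/Light+, 7 passed as higher and 3 as lower (median 0.84), with Bcl2a1 at 5.20 ± 0.32, Bik at 37 to 80 counts and Bcl2l14 at 6 to 14 counts in the iCarP+/Light+ rats.

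Genes of the mitochondrial pathway beside or after BAX and BAK formed a further list. Of 11 tested, 2 passed as higher and 7 as lower from Sham to MI (median log2 fold change -0.69), beside 30.2% and 33.6% of all genes. The largest were Cycs, which encodes cytochrome c (-2.29 ± 0.22), and the outer membrane channels Vdac1 (-1.91 ± 0.11) and Vdac3 (-1.65 ± 0.14), all 3 abundant in cardiomyocytes, whose markers were lower too. From MI to iCarP+/Light+, Vdac1 alone passed (0.41 ± 0.10, adjusted p = 0.0156), where 13.6% of all genes passed. The median of the list was 0.023. From Sham to iCarP+/Light+, 3 passed as higher and 7 as lower (median -0.80), beside 33.5% and 33.0% of all genes. Cycs was at -2.27 ± 0.22, Vdac3 at -1.59 ± 0.14 and Vdac1 at -1.50 ± 0.10.

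Among 11 regulators (transcription factors known to act on the family, with Cdkn1a and Mdm2), 3 passed as higher and 1 as lower from Sham to MI (median -0.018). From MI to iCarP+/Light+, 9 passed as higher and none as lower (median 0.90). Of all genes, 30.2% passed as higher and 33.6% as lower in the first of these comparisons, and 11.6% and 2.01% in the second. Between Sham and MI the largest were the cell-cycle inhibitor gene Cdkn1a (1.55 ± 0.24), the hypoxia factor Hif1a (1.52 ± 0.19) and Foxo1 (-1.01 ± 0.25). Between MI and iCarP+/Light+ they were Ddit3, which encodes the stress factor CHOP (1.98 ± 0.28, adjusted p = 4.15e-04), Cdkn1a (1.70 ± 0.24, adjusted p = 3.75e-04) and Foxo3 (1.42 ± 0.29, adjusted p = 0.00544). Ddit3 was at 26.1, 26.6, 42.1 and 20.5 CPM in MI and at 57.9, 116, 141 and 142 CPM in iCarP+/Light+. From Sham to iCarP+/Light+, 10 passed as higher and 1 as lower (median 1.03), beside 33.5% and 33.0% of all genes. The largest were Cdkn1a (3.26 ± 0.26), Hif1a (2.56 ± 0.20) and Atf4 (1.56 ± 0.17). The activity of these factors is not measured by their RNA.

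**Figure D5:**
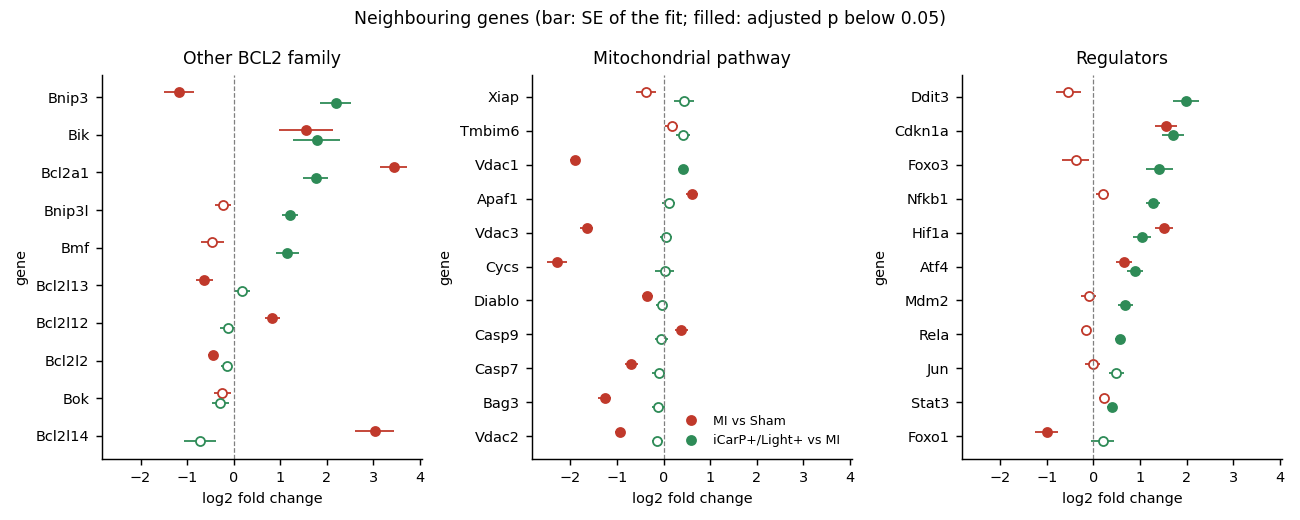
Log2 fold change (x axis) of the tested genes in 3 lists, other BCL2 family genes, mitochondrial pathway genes, and regulators; red is MI against Sham, green iCarP+/Light+ against MI, bars are the SE of the fit and filled points have an adjusted p below 0.05. Green points of the mitochondrial list lie close to 0 with Vdac1 alone filled, whereas 5 of 10 family genes and 9 of 11 regulators are filled to the right of 0; the red points of Bcl2l14 and Bik rest on 1 to 3 and 0 to 10 counts in each Sham rat.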

How the data were processed

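RNA was extracted with Trizol from left ventricular tissue and made into libraries with an NEBNext Ultra kit, per the labels. The authors deposited raw read counts per gene; the submitters' processing notes name HISAT2, featureCounts and rn6, without versions. The annotation release and the strand setting were not given in the sources used here. The table pairs gene IDs with names, coordinates and gene lengths, and rows named "-" could not be matched by symbol.

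Counts were filtered with edgeR 4.0.16 (filterByExpr, minimum count 10), scaled by TMM and tested with glmQLFit and glmQLFTest over all 12 rats with 1 mean per group (R 4.3.3), since the study's general statistics name no test for sequencing counts. P-values were Benjamini-Hochberg adjusted over 15101 genes, with a threshold of 0.05. CPM used the scaled size of each library, and RPKM divided it by the deposited gene length. SEs were taken from the fold change and its F statistic. Ratios of counts (0.5 added) were compared by exact permutation over rats (scipy 1.17.1); 6 comparisons were made because the planned ratio with Mcl1 could not be computed. Alternatives were other scalings, filters and gene sets, DESeq2 1.42.0, limma 3.58.1 (voom), the compared groups alone, a replicate block and each rat left out. The fit was checked on simulated counts, where few genes changed, in MI alone and as likely up as down. Scaling where most genes differ, as in both comparisons with Sham, was therefore not checked. The fit missed more of the known changes, mostly the smaller ones, than the pass condition first allowed. The condition was then limited to the larger changes, so a gene that did not pass may still differ.

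Members, lists and motifs were chosen with earlier results of these data known. All 10 members were to be named, and from each further list up to 3 genes per comparison with the largest log2 fold change among those that passed; 1 gene of the mitochondrial list and 1 of the regulators are not reported here and were left out of the counts. Promoters came from RefSeq (GRCr8); no other use of that build was made. Replicates were separate rats, so p-values measure the spread between rats. No sequencing batch is named in the labels, and a batch that ran along with them could not be separated from the treatments. No 2 libraries agreed within sampling noise (chi-square per gene of 14.5 to 116 over 18 pairs within groups). The lowest member count in a rat was 48, for Bcl2, so counting error weighs most on Bcl2 and its ratio with Bax.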

Additional observations from a re-analysis of the deposited data

Results flagged for a closer look

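Bcl2l11 in iCarP+/Light+ rat 1 stood apart from the other 3 rats of its group. It was at 34.6 CPM there and at 67.8, 72.8 and 74.8 CPM in the others, a gap of 0.872 of the group's range on log2 CPM, above the 95% critical value of Dixon's test for 4 samples. On CPM itself the gap was 0.825 of the range, just below that value, so the mark depends on the scale. It was the 1 value so marked in 30 groups looked at, and chance marks about 1 in 20. That rat also had the lowest summed leukocyte markers of its group, 3720 CPM against 5632 to 8979, and the part of these cells in the value was not tested. Without that rat, Bcl2l11 was higher in iCarP+/Light+ than in MI by log2 1.62.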

How the results depend on the processing

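Over 10 alternatives and 12 fits that each left out a rat, Bcl2l1, Bcl2l11 and Pmaip1 stayed higher with adjusted p under 0.05 between iCarP+/Light+ and MI. Of 240 values of members under the 10 alternatives, 228 kept their direction and side of the threshold, 2 lost and 6 gained a call and 4 turned sign; of 288 with a rat left out, 278 kept both, 4 gained a call and 6 turned sign. Scaling by total counts alone shifted the median of all genes to log2 0.52 (MI to Sham), -0.25 (iCarP+/Light+ to MI) and 0.33 (iCarP+/Light+ to Sham), and the share of calls that were higher from 47.3%, 85.2% and 50.3% to 73.5%, 30.6% and 64.7%. Under it 3936 genes passed between iCarP+/Light+ and MI instead of 2051. Bcl2 (0.15) and Bcl2l11 (0.36) turned sign from Sham to MI and Bak1 (-0.16) from MI to iCarP+/Light+, none with a call, whereas relative to the median they were at -0.37, -0.16 and 0.092; Bcl2 from Sham to iCarP+/Light+ lost its call (-0.43), and Bad gained one from Sham to MI (0.93) and from MI to iCarP+/Light+ (-0.58). DESeq2 and a minimum of 10 counts in every rat lowered the share of higher calls between iCarP+/Light+ and MI to 70.8% and 72.4%. Bad from Sham to MI also passed under DESeq2 size factors (0.43), DESeq2 (0.43), that minimum (0.44) and the compared groups alone (0.50). The cause was not tested.

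Replicate numbers name different rats. Over 9 pairs of same-numbered rats the deviations from the group means correlated at -0.15 to 0.065, none over 0.1. No rat correlated best with its own number. Rats of unlike number reached 0.20 (MI rat 1 with iCarP+/Light+ rat 5). These values show no pairing by number and cannot detect a weak one. With the replicate block 1298 genes passed between iCarP+/Light+ and MI, Bcl2l1 from Sham to MI was 0.52 (adjusted p = 0.0659) and Bad from Sham to iCarP+/Light+ was -0.12. With a rat left out, iCarP+/Light+ against MI ran from -0.25 to 0.11 for Bax and from -0.031 to 0.18 for Bak1, Bad against Sham from -0.035 to 0.18, and the Bax to Bcl2 log2 ratio between iCarP+/Light+ and MI from -0.040 to 0.51. The exact permutation tests of ratios with 4 rats against 3 cannot go below p = 0.0571, so they say nothing about stability; there the other log2 ratio differences ran from 1.71 to 2.26 and 2.04 to 2.40 (Bax to Bcl2, MI and iCarP+/Light+ against Sham) and 0.87 to 1.07 and -1.32 to -1.14 (Bax to Bcl2l1, MI against Sham and iCarP+/Light+ against MI), and Bax to Bcl2l1 between iCarP+/Light+ and Sham ranged from -0.34 to -0.16.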

Other observations

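Within the iCarP+/Light+ group, rat 1 had the lowest value of the 4 rats for 6 of the 8 measured members and rat 5 the highest for 5. Over the 15 genes of the other lists that passed between iCarP+/Light+ and MI, rat 1 was lowest for 15 and rat 5 highest for 12. The same rats were lowest and highest in summed leukocyte markers (3720 and 8979 CPM) and highest and lowest in summed cardiomyocyte markers (7742 and 2831 CPM). These genes were looked at because they passed, and the order was seen in the data, so the counts are a description of 4 rats.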
